A study of Mus musculus with 6 samples.

Results

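Chga, Tac2, Rundc3a, Dzip1, Ano1, Spry1, Padi2 and Btn1a1 are 8 of the 34542 genes in the deposited gene count table. They were chosen by their large increases in gene counts in fetal liver cells lacking the miR-144/451 locus, so that the rise in their exons could be set beside the rise in their introns. That contrast chose them, and its values are therefore given for these genes as a description with standard errors and no test. The libraries came from fetal liver cells of C57BL/6J mice, with 3 libraries of genotype WT and 3 of genotype miR-144/451-/- (KO). All groups shared the strain, the tissue, an RNA preparation from equal numbers of cells and sequencing of polyadenylated RNA, and no treatment was named. The labels give neither the age of the embryos nor whether a library came from 1 embryo or a pool, so p-values below measure the spread between these libraries, which may be technical. Libraries are called here by their numbers in the labels, WT 1 to 3 and KO 4 to 6.

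MicroRNAs are short RNAs that pair through their seed, bases 2 to 8, with sites mostly in the 3' untranslated region (UTR) of messenger RNAs, which lowers the amount or translation of those messengers. miR-144 and miR-451 are made from 1 shared precursor transcript in red cell precursors, and the fetal liver is where most red cells form before birth. The 8 genes are best known elsewhere. Chga encodes chromogranin A, a core protein of hormone granules, and Tac2 encodes the precursor of the neuropeptide neurokinin B. Rundc3a encodes a RUN domain protein that binds the small GTPase RAP2 and is best known from neurons. Dzip1 acts at the base of the primary cilium and in Hedgehog signalling, Ano1 is a calcium-activated chloride channel, and Spry1 restrains signalling from receptor tyrosine kinases to ERK. Padi2 converts arginine in proteins to citrulline, and Btn1a1 encodes butyrophilin, a membrane protein of secreted milk fat droplets.

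The gene table held 24659978 to 44700229 counts per library, and intervals from counts would cover counting error only. The deleted locus matched the labels: Mir451 had 323, 446 and 418 counts in WT libraries 1, 2 and 3 and 3, 2 and 4 counts in KO libraries 4, 5 and 6, and Mir144 had 29 to 51 against 0 to 1. Summed levels of 9 erythroid markers were 19852 to 27343 CPM (counts relative to a scaled library size) in WT and 14788 to 17517 in KO, and both groups therefore carried a red cell programme. Of these, Tfrc, the transferrin receptor, was lower in KO by 0.83 on the log2 scale (adjusted p = 0.0336, edgeR quasi-likelihood test with Benjamini-Hochberg adjustment), and its adjusted p ran up to 0.186 when single libraries were left out. Summed hepatocyte markers stood apart in WT library 2 (54314 CPM) and KO library 6 (44469 CPM), against 8463 to 19423 CPM in the other libraries. In bulk RNA, fewer cells of a type and less RNA per cell cannot be told apart, and the part of these shifts in the values below was not tested.

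The seeds of the deleted microRNAs were searched in the 8 genes. The mature sequences are shown because the deleted locus is the genotype itself, with the seed in capitals, 5′ to 3′, from RefSeq (GRCm38.p6), at chr11:78073186-78073207, chr11:78073047-78073066 and chr11:78073010-78073032, all on the plus strand.

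miR-451a: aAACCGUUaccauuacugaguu

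miR-144-3p: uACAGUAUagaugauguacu

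miR-144-5p: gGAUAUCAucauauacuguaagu

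The 3 seeds differ from each other. The 7-base site in a messenger is AACGGTT for miR-451a, ATACTGT for miR-144-3p and TGATATC for miR-144-5p. In the longest annotated 3' UTR of each gene (GENCODE, GRCm38), 0 of the 8 held any of the 3 sites. Among 13092 tested genes with a 3' UTR, 2.01%, 13.05% and 5.82% held the respective site. The 3' UTRs of Tac2, Chga and Rundc3a were short, at 238, 335 and 432 bases, and those of the other 5 genes had 1047 to 2662 bases, against a median of 1148 over tested genes. A search of whole transcripts found a single match for these 3 microRNAs, a miR-144-5p word in the coding part of Ano1 (transcript positions 2880 to 2886, before a 3' UTR that starts at 3103). It is shown with the word in capitals.

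Ano1 coding stretch: tgggtgatcccTGATATCcccaaagacatc

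That word occurs somewhere in the transcript of 12.14% of tested genes. Another annotated microRNA of the locus, miR-451b, lies on the minus strand at chr11:78073219-78073239, and its site, TGCTCCC, was found in the 3' UTR of Padi2 at 2 places and in 13.02% of tested genes. Both Padi2 stretches are shown with the word in capitals, at transcript positions 2994 to 3000 and 3141 to 3147.

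Padi2 first stretch: tccagcctcagTGCTCCCtttccagctagc

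Padi2 second stretch: gcaattaaaaaTGCTCCCtgctcttggaga

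A match is a description of letters, and no match says only that these letters were not in the part searched.

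All 8 genes had counts in every WT library, the fewest for Rundc3a at 25 to 57. Whether reads of neighbouring genes were among these counts was not tested. In the fit over 15105 genes, 1.83% were called higher in KO and 1.45% lower (edgeR quasi-likelihood test, adjusted p under 0.05). The 8 genes were all among those called higher, which restates how they were picked. Leaving out single libraries left 3 of the 8 called without WT library 1, WT library 3 or KO library 5. It left 4 without KO library 4, 5 without KO library 6 and 8 without WT library 2. This is a description, since the same contrast chose the genes. Over all genes, 6 were called higher without WT library 1, 6 without WT library 3 and 5 without KO library 5. The count was 14 without KO library 4, 54 without KO library 6 and 483 without WT library 2. Each of the 8 genes had all KO libraries above all WT libraries, as did 11.8% of the genes tested. Among 260 genes called higher that averaged 5 CPM or more over the 6 libraries, they held ranks 1 to 5 and 10 to 12. The order was by log2 change, with Chga first and Btn1a1 at rank 12. Chga, Rundc3a and Dzip1 averaged under 5 CPM in WT and passed that floor through their KO levels. Called genes under the floor included Cxcr7, Smtnl1 and Vwa5b2, with log2 changes of 3.93, 2.56 and 2.52. The ranks thus depend on the floor and restate how the 8 were picked.

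**Figure D1:**
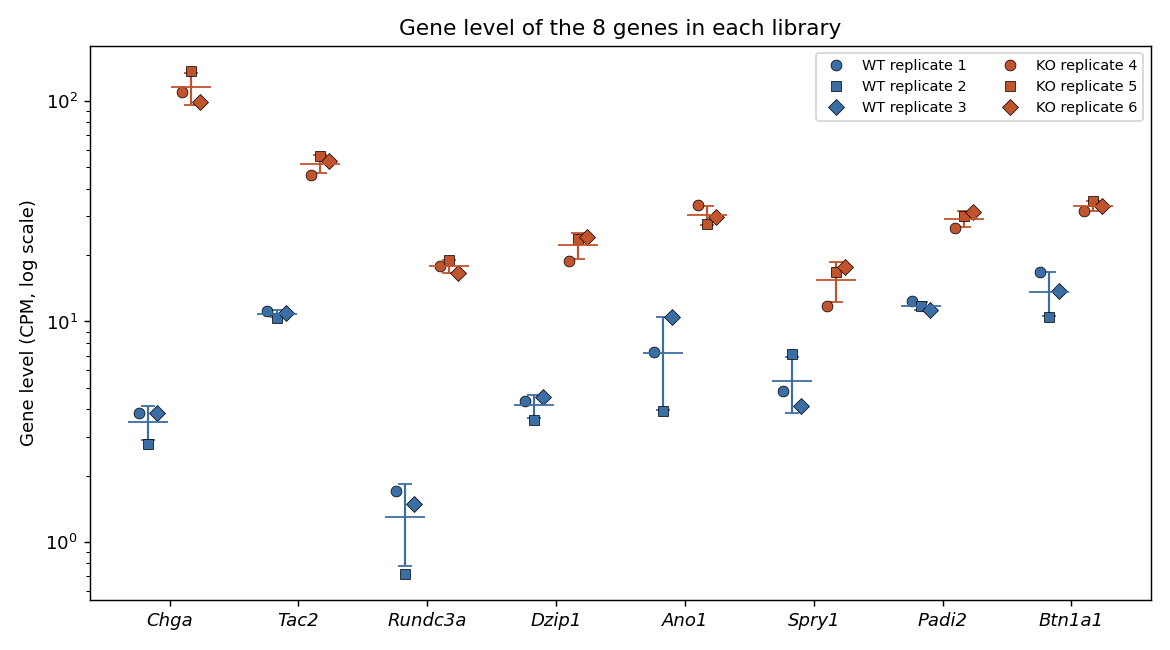
Gene level in CPM (log axis) of the 8 genes in the 3 WT libraries (blue) and the 3 KO libraries (orange), with horizontal marks for the mean and bars for the SD. The groups do not overlap for any of the 8 genes, and the lowest KO library is above the highest WT library by 25.6-fold for Chga, the widest gap, and by 1.65-fold for Spry1, the narrowest.

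Chga had the largest rise of the 8 genes. It lies on chromosome 12 (chr12:102554969-102565028, plus strand, GRCm38), has 8 exon blocks and spans 10060 bases. Its gene level was 3.86, 2.79 and 3.86 CPM in WT libraries 1, 2 and 3, from 129, 98 and 93 counts. In KO libraries 4, 5 and 6 it was 109.8, 136 and 98.8 CPM, from 5157, 5720 and 4079 counts. The lowest KO library was thus 25.6-fold above the highest WT library, a gap far wider than the spread within either group. The means were 3.51 ± 0.617 and 115 ± 19.4 CPM (SD, n = 3 each). On the log2 scale the change was 5.04 (SE 0.20).

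The introns of Chga rose with its exons. Intron counts gave 4.94, 4.64 and 2.55 CPM in WT, scaled to the intron library size, and 218, 259 and 202 CPM in KO. Their log2 change was 5.81 (SE 0.26). The exonic change minus the intronic change, from 1 fit over both kinds of counts, was -0.79 (SE 0.30), so relative to all genes the introns of Chga rose further than its exons. Introns held 20.4%, 24.6% and 16.2% of its exon plus intron counts in WT and 32.5%, 24.7% and 29.4% in KO. The annotation lists 2 retained-intron transcripts among the 3 of Chga, and which transcripts the intron counts came from was not tested.

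The 200 bases before the GENCODE start of Chga (chr12:102554769-102554968, plus strand, sequence from RefSeq, GRCm38.p6) are shown because Chga carried the largest change. Capitals mark TGACGT, the core of the element bound by cAMP-responsive factors, and TATAAA, the TATA box word.

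Chga upstream: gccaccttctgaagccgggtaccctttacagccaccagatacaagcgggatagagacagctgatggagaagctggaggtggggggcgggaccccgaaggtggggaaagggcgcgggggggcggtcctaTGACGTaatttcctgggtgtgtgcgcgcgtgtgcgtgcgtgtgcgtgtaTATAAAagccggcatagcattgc

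TATAAA began 23 bases and TGACGT 72 bases before the gene start annotated by GENCODE. The RefSeq start lies further upstream. Counted from it, TGACGT began at base -44 and TATAAA at base 6, inside the RefSeq transcript. Over 32851 RefSeq windows of 300 bases, both strands, 13.62% held TATAAA and 7.51% held TGACGT. Windows were found for 6 of the 8 genes, not for Rundc3a and Btn1a1. Dzip1 had several windows and was counted if any of them held the word, while the background share is per window. The window of Ano1 (chr7:144738524-144738823, minus strand) lies inside the gene as annotated by GENCODE. Among those 6, Chga was the 1 gene with either word. The erythroid GATA words AGATAA and TGATAA were in 0 of the 6, against 11.18% and 9.05% of windows, and CACCC was in 3 (Chga, Dzip1 and Ano1) against 57.52%. CCAAT was in 4 (Tac2, Dzip1, Spry1 and Padi2) against 37.41%. Of 2 words from the element bound by the neuronal gene repressor REST, TTCAGCACC was in 0 against 0.37%, and the shorter GGACAG was in 2 (Dzip1 and Ano1) against 22.18%. The window of Chga had 62.0% G and C, against a median of 52.7% over windows.

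Other granule genes were mostly scarce. Of 22 other genes for dense-core granules (granins, prohormone convertases, release machinery), 8 had enough counts to test and 0 were called in either direction, with 1 past an unadjusted p of 0.05. That gene was Ptprn2, a granule membrane protein, at 0.709 ± 0.153 CPM in WT and 1.42 ± 0.486 CPM in KO (log2 change 1.01, edgeR adjusted p = 0.180). With a hepatocyte covariate Ptprn2 was called higher, as were 1277 genes over all genes, against 276 without the covariate. The median log2 change of the 8 was 0.09, against -0.03 over all tested genes. Pam, which amidates peptide hormones, was at 9.40 ± 1.48 CPM in WT and 9.55 ± 2.0 in KO. The other 14 stayed at or under 0.540 CPM in every library, Chgb, the sister granin, was at 0.240 and 0.198 CPM, and the release protein Snap25 was at 0. Markers of hormone-producing cells were also near 0. Summed over 12 genes, pancreatic endocrine markers were 0.300 to 1.65 CPM in WT and 0.215 to 0.256 in KO, with Ppy at 0. For 7 chromaffin and sympathetic genes the sums were 0.180 to 0.428 and 0.167 to 0.298 CPM, with Dbh, Pnmt and Phox2a at 0. For 7 enteroendocrine genes they were 0.120 to 0.371 and 0.0969 to 0.149 CPM. Mast cells also hold secretory granules, and their 7 markers summed to 32.6 to 43.5 CPM in WT and 22.9 to 27.6 CPM in KO, with 0 called.

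Tac2 had nearly equal changes in introns and exons. It lies at chr10:127724478-127731768, plus strand. Its level was 11.1, 10.4 and 10.96 CPM in WT and 46.4, 56.3 and 53.2 CPM in KO. The 3 WT libraries lay within 1 CPM of each other, the smallest spread among the 8 genes relative to the mean. The means were 10.8 ± 0.382 and 51.9 ± 5.07 CPM, a log2 change of 2.26 (SE 0.11). Intron levels were 30.7, 29.8 and 29.1 CPM in WT and 137, 139.5 and 140.4 CPM in KO, a log2 change of 2.22 (SE 0.12). The exonic minus intronic change was 0.03 (SE 0.16).

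Neither the other tachykinin precursors nor the receptors were detected beyond stray counts. Tac1 and Tacr1 had 0 counts, and Tacr3, the receptor of neurokinin B, had at most 1 count in a library. All 6 genes of that list together (Tac1, Tac4, Tacr1, Tacr2, Tacr3 and the peptidase Mme) had 11 counts over 6 libraries. Neuron markers, over 7 genes, summed to 1.08 to 1.79 CPM in WT and 1.31 to 1.70 in KO. The 200 bases before the Tac2 start (chr10:127724278-127724477, plus strand, RefSeq) are shown beside those of Chga, since Tac2 had the highest WT level per length. They hold none of the capitalised words.

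Tac2 upstream: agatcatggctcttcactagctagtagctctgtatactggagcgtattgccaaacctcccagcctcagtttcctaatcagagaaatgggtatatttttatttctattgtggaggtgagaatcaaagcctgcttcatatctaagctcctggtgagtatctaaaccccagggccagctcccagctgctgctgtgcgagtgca

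Rundc3a departed most from equal change. It lies at chr11:102393403-102402555, plus strand, on the same chromosome as the deleted locus. Gene level was 1.71, 0.713 and 1.49 CPM in WT, from 57, 25 and 36 counts, and 17.8, 19.0 and 16.5 CPM in KO. The log2 change was 3.77 (SE 0.33), while the intronic log2 change was 2.02 (SE 0.25). Intron levels were 11.98, 13.8 and 8.08 CPM in WT and 47.6, 53.5 and 36.6 CPM in KO. The exonic minus intronic change was 1.79 (SE 0.45), the largest positive value of the 8.

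The intronic share of Rundc3a was higher in WT. Introns held 58.4%, 79.2% and 61.3% of its counts in WT and 39.3%, 32.7% and 31.1% in KO. The exon counts that enter this share are those on which the gene was chosen for its rise. Per kilobase, intron counts were 50.9%, 138% and 57.4% of exon counts in WT libraries 1, 2 and 3. In KO libraries 4, 5 and 6 they were 23.5%, 17.6% and 16.4%. The means were 82.0% in WT and 19.2% in KO, and WT library 2, with 25 exon counts, raised the WT mean. Slc25a39, a mitochondrial carrier gene, ends 429 bases from Rundc3a on the opposite strand and was abundant in both groups, at 440.3 ± 70.6 and 487 ± 48.3 CPM (log2 change 0.15, SE 0.14, edgeR adjusted p = 0.744). No source used here gives the strand setting of the counting, so reads that run past the end of Slc25a39 could not be told from reads of Rundc3a, and their part in its introns was not tested.

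Relatives of Rundc3a were not called in the edgeR fit of all 6 libraries without a covariate. Of 11 genes for RUN domain proteins and RAP2 GTPases, 10 were tested and 0 were called, with 2 past an unadjusted p of 0.05 and a median log2 change of 0.07. Rap2c, a RAP2 GTPase, was at 62.8 ± 2.72 CPM in WT libraries and 80.7 ± 5.52 CPM in KO (log2 change 0.36, edgeR adjusted p = 0.0701). Rap2c was called higher without WT library 2, with or without KO library 6, with DESeq2 and with a hepatocyte covariate. Rusc1 was also called higher with that covariate. Those runs called 483 to 1277 genes higher over all genes, against 276. The closest paralogue, Rundc3b, was at 0.325 and 0.210 CPM.

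Dzip1 lies at chr14:118875520-118925460, minus strand. Its level was 4.37, 3.59 and 4.53 CPM in WT and 18.8, 23.6 and 24.1 CPM in KO. The means were 4.16 ± 0.50 and 22.2 ± 2.93 CPM, a log2 change of 2.41 (SE 0.16). Its introns, at 9.59, 9.71 and 7.23 CPM in WT and 30.3, 51.5 and 47.0 CPM in KO, gave 2.28 (SE 0.26). The difference of the 2 changes was 0.15 (SE 0.28), less than its SE. An antisense gene, Gm49179, overlaps 1550 exon bases of Dzip1, and without the strand setting the 2 cannot be told apart.

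Among 22 other cilium and Hedgehog genes, 19 were tested, 1 was called higher and 0 lower, with a median log2 change of 0.08. Past an unadjusted p of 0.05, 3 were higher and 2 lower. The called gene was Cep164, which builds the appendages that dock a centriole for cilium formation. It was at 43.3, 35.9 and 38.6 CPM in WT and 62.4, 71.8 and 59.9 CPM in KO libraries (log2 change 0.72, SE 0.11, edgeR adjusted p = 0.0274). Its adjusted p was 0.0509 to 0.129 when WT library 1, WT library 3 or any single KO library was left out. Arl13b (log2 change 0.64) was called higher without WT library 2, with DESeq2 and with a hepatocyte covariate. Cep290 (-0.40) was called lower without WT library 2, with or without KO library 6, and with that covariate. Spop was called lower without WT library 2, and Bbs4 and Ptch1 higher with the covariate. These runs called 483 to 1277 genes higher and 652 to 1286 lower over all genes, against 276 and 219. The paralogue Dzip1l was at 0.466 and 0.423 CPM.

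Ano1 lies at chr7:144588549-144751974, minus strand, and is the longest of the 8 genes at 163426 bases. Its WT libraries varied most relative to their mean, at 7.28, 3.94 and 10.5 CPM, and its KO libraries were at 33.7, 27.7 and 29.7 CPM. The lowest KO library was 2.65-fold above the highest WT library. The log2 change was 2.08 (SE 0.34) in the gene counts and 1.5 (SE 0.29) in the introns, a difference of 0.60 (SE 0.52). The WT order was not the same in the introns, which were at 48.1, 36.4 and 20.1 CPM, and KO introns were at 109.9, 95.6 and 90.5 CPM. An antisense gene, Gm44930, lies over introns of Ano1, and its reads cannot be told apart from them without the strand setting. Of 9 other anoctamins 4 were tested and 0 called, with a median log2 change of -0.15. Ano6, a lipid scramblase, was at 34.3 ± 5.24 and 31.4 ± 1.94 CPM, and Ano5 was at 0.

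Spry1 had the narrowest gap between groups, with the lowest KO library 1.65-fold above the highest WT library. It lies at chr3:37639947-37644598, plus strand, with 2 exon blocks and a single intron stretch of 1746 bases. Gene level was 4.85, 7.10 and 4.15 CPM in WT and 11.7, 16.8 and 17.6 CPM in KO, a log2 change of 1.52 (SE 0.26). Its introns gave few counts, 8, 7 and 36 in WT and 44, 35 and 137 in KO. WT library 3 and KO library 6 were the high ones, and the intron groups overlapped. Gm42922, an unclassified gene model on the opposite strand, overlaps 710 bases of Spry1. The intronic log2 change was 1.76 (SE 0.78) and the exonic minus intronic change -0.22 (SE 0.84), whose sign turned to 0.09 without WT library 1, 0.47 without WT library 2 and 0.28 without KO library 6.

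Genes of the pathway that Spry1 restrains were not called in the edgeR fit of all 6 libraries without a covariate. Of 16 Sprouty and ERK feedback genes 15 were tested and 0 were called, with 2 past an unadjusted p of 0.05 and a median log2 change of -0.04. The larger of those changes was in Rasa1, which switches off RAS, at 43.4 ± 2.21 CPM in WT and 54.7 ± 2.69 CPM in KO (log2 change 0.33, SE 0.08, edgeR adjusted p = 0.0879). Rasa1 was called higher without WT library 2, with or without KO library 6, with DESeq2 and with a hepatocyte covariate. Sos1 was also called higher with that covariate. Those runs called 483 to 1277 genes higher over all genes, against 276. The adaptor Grb2 was at 96.5 ± 4.37 CPM in WT and 87.2 ± 4.45 CPM in KO. Spry2 and Spry4, paralogues of Spry1, had log2 changes of -0.04 (SE 0.30) and 0.23 (SE 0.40).

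Padi2 lies at chr4:140906344-140952586, plus strand. Its level was 12.3, 11.7 and 11.3 CPM in WT and 26.5, 30.0 and 31.2 CPM in KO. The means were 11.8 ± 0.528 and 29.3 ± 2.44 CPM, a log2 change of 1.31 (SE 0.11). Introns, at 7.19, 7.10 and 4.82 CPM in WT and 11.3, 12.3 and 15.4 CPM in KO, gave 1.03 (SE 0.27), and the difference was 0.27 (SE 0.26). Introns held 10.4% to 11.1% of its counts in WT and 6.60% to 9.38% in KO, the lowest mean KO share of the 8 genes. The antisense gene Gm13031 overlaps 3025 exon bases and had at most 2 counts in a library. Padi4, known from neutrophils, was at 5.00 ± 1.33 and 3.12 ± 1.64 CPM (log2 change -0.69, edgeR adjusted p = 0.521), while Padi3 was at 0.580 ± 0.136 and 0.975 ± 0.149 CPM (log2 change 0.75, SE 0.27, edgeR adjusted p = 0.240). These were the 2 tested of the 4 other PADI genes, and Padi3 was the 1 past an unadjusted p of 0.05.

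Btn1a1 lies at chr13:23456992-23465901, minus strand. Its level was 16.7, 10.5 and 13.7 CPM in WT and 31.7, 35.1 and 33.3 CPM in KO, a log2 change of 1.29 (SE 0.18), the smallest of the 8. Introns, at 12.1, 16.7 and 9.64 CPM in WT and 33.2, 44.6 and 41.9 CPM in KO, gave 1.64 (SE 0.24). The difference was -0.35 (SE 0.34), about the size of its SE. The 4 mammary markers (Csn2, Wap, Lalba and Csn1s1) summed to 0 in every library but KO library 5, where they reached 0.0239 CPM. Of 9 other butyrophilin and milk fat genes 4 were tested and 0 called. Btnl10 was at 203 ± 19.5 and 218 ± 12.5 CPM, and Plin2, a lipid droplet coat protein, at 205 ± 5.59 and 160.2 ± 9.87 CPM (edgeR adjusted p = 0.0664). Plin2 was called lower without WT library 2, with or without KO library 6, with DESeq2 and with a hepatocyte covariate. Those runs called 652 to 1286 genes lower over all genes, against 219.

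Set side by side, the introns of the 8 genes had log2 changes from 1.03 for Padi2 to 5.81 for Chga. The smaller ones moved across 1 with the libraries and with the scaling. Without KO library 6 Padi2 was at 0.89 and Spry1 at 0.82, and Padi2 was at 0.83 without WT library 3. Spry1 was at 0.4 without WT library 2 and KO library 6 together. With all 6 libraries Padi2 was at 0.99 with another scaling method or DESeq2, and at 0.91 with introns on the exon scale. Of the 11803 genes tested for introns 0.237% were called higher in KO, and of the 8 genes 5 were (Chga, Tac2, Rundc3a, Dzip1 and Btn1a1). That count was 1 (Chga) without WT library 2 and KO library 6 together, and 2 to 6 when single libraries were left out. Over all genes, the introns of 1 gene were called higher without that pair, and of 4 to 27 genes with single libraries left out. In 7 of the 8, all but Spry1, every KO library lay above every WT library in introns, as in 9.92% of genes tested. For the exonic minus intronic change, 0% of 11100 genes were called, and 338 were past an unadjusted p of 0.05. None of the 8 was called, and the value was positive in 5 and negative in 3. Without WT library 3, Rundc3a (2.14) and Ano1 (1.29) were past the threshold, and with DESeq2 Rundc3a (1.85) was. The median of the 8 was 0.09.

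**Figure D2:**
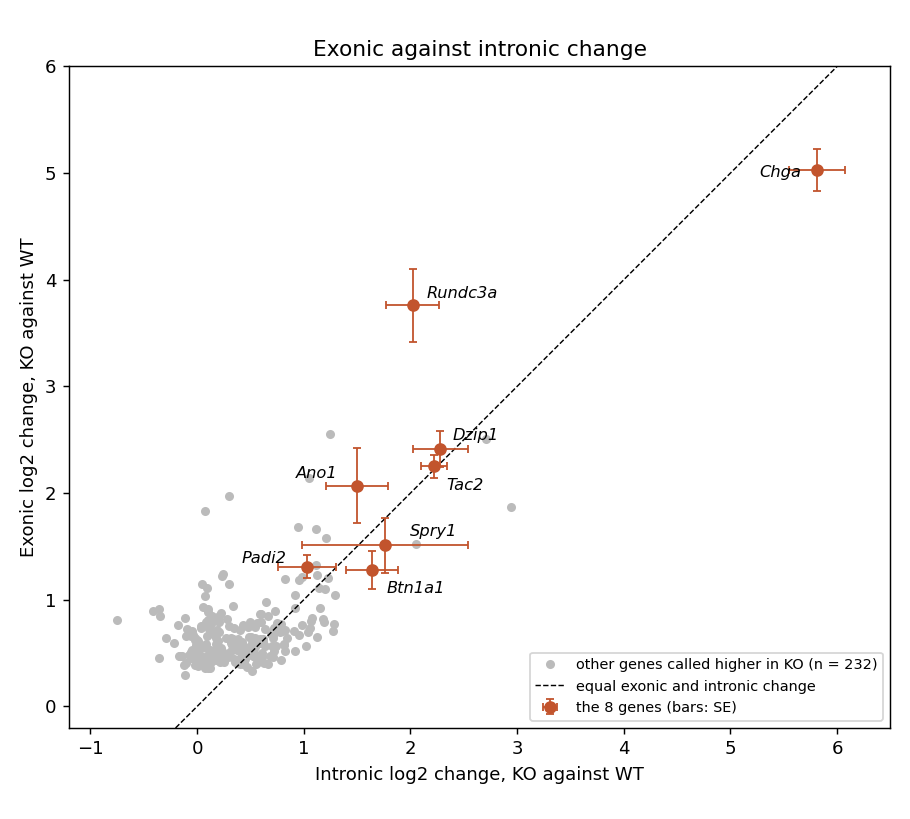
Exonic against intronic log2 change, KO against WT, for the 8 genes (orange, bars are SE) and for 232 other genes called higher in KO (grey), with a dashed line of equal change. Rundc3a lies above the line (3.76 against 2.02) and Chga below it (5.03 against 5.81).

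The other 232 genes called higher in KO with both values had a median exonic change of 0.62, a median intronic change of 0.35 and a median difference of 0.26. Introns were over 2-fold higher in 24 of them, and in 8 of the 8 genes here, where Padi2 and Spry1 were below 2-fold without KO library 6. Padi2 was also just below 2-fold with another scaling method or DESeq2. Since the 8 were picked for large changes, the 26 others with an exonic change above 1 are nearer in size, but not matched. Their exonic and intronic medians were 1.22 and 1.02, against 2.16 and 1.89 for the 8 genes. The median difference of the 26 was 0.39 (quartiles 0.03 and 0.99), and in 13 of them the introns were over 2-fold higher.

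**Figure D3:**
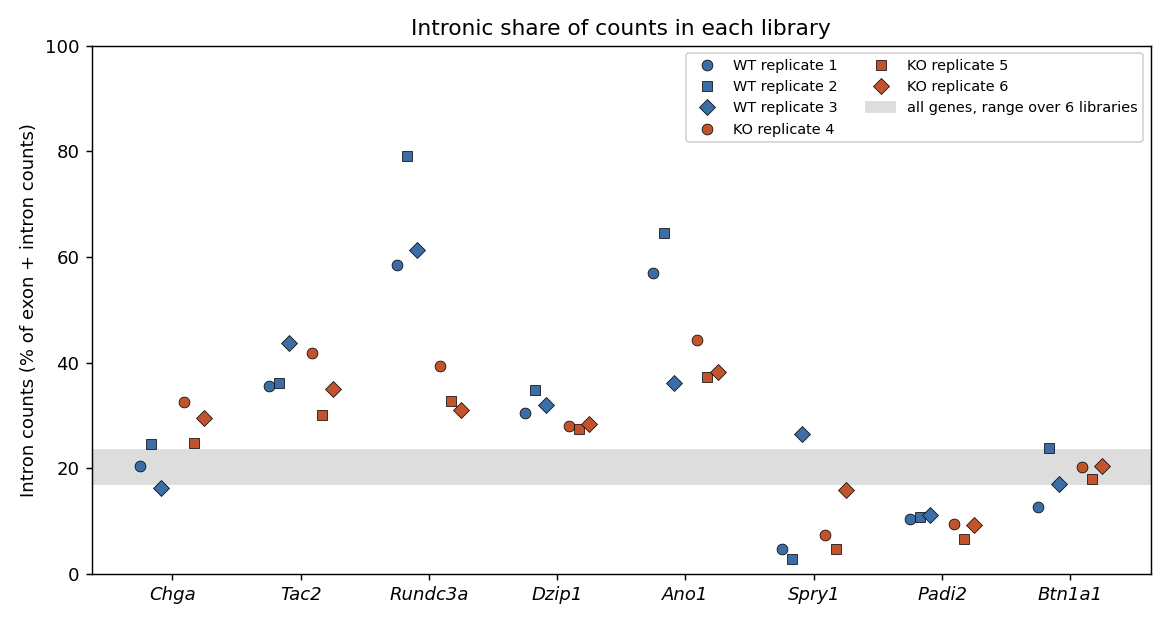
Intron counts as a percentage of exon plus intron counts for each gene and library, WT in blue and KO in orange, with the range over all genes of the 6 libraries as a grey band (16.9% to 23.4%). Rundc3a lies at 58.4% to 79.2% in WT and 31.1% to 39.3% in KO, and the group means of the other 7 genes differ less.

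Levels of different genes were compared per kilobase of exon. In WT the order was Tac2 (13.6 ± 0.614 CPM per kb), Btn1a1 (3.84 ± 0.898), Padi2 (2.73 ± 0.123), Chga (2.06 ± 0.382), Spry1 (2.04 ± 0.561), Ano1 (1.65 ± 0.759), Dzip1 (0.957 ± 0.12) and Rundc3a (0.594 ± 0.242). In KO Chga (67.2 ± 11.3 CPM per kb) and Tac2 (64.9 ± 6.16) led, and their ranges overlapped. Btn1a1 (9.33 ± 0.446), Rundc3a (8.04 ± 0.561), Ano1 (6.87 ± 0.704), Padi2 (6.75 ± 0.545), Spry1 (5.82 ± 1.19) and Dzip1 (5.07 ± 0.655) followed. From Ano1 to Dzip1 neighbours in the KO order lay within their SDs of each other. In WT, Chga, Spry1 and Ano1 also lay within their SDs of each other. Chga thus stood behind Tac2, Btn1a1 and Padi2 in WT and ahead of them, or level with Tac2, in KO, while Rundc3a left the last place.

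The libraries did not rank alike across the 8 genes. WT library 2, the one with most hepatocyte signal, was the lowest WT library for 6 of the 8 genes, the highest for Spry1, and neither for Padi2. KO library 4 was the lowest KO library for 5 genes. The 8 genes lie on 8 different chromosomes.

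Genes beside them on the chromosome were not called in gene counts. Of the 16 nearest genes on either side 10 were tested, 0 were called higher and 0 lower, and log2 changes ran from -0.96 to 0.19. Itpk1, an inositol kinase gene 3553 bases from Chga, was at 7.95 ± 1.93 and 9.08 ± 0.948 CPM (log2 change 0.19, SE 0.21, edgeR adjusted p = 0.799). The lowest value belonged to Gm11616, annotated as the long noncoding RNA Bloodlinc, 16382 bases from Rundc3a. It was at 1.62 ± 0.188 CPM in WT libraries and 0.833 ± 0.0950 CPM in KO libraries (log2 change -0.96, SE 0.21, edgeR adjusted p = 0.0702). In introns 10 neighbours were tested, 0 were called higher and 1 lower, against 0.483% of all genes tested for introns. That gene was Cldn10, a claudin gene that ends 30 bases from Dzip1 on the opposite strand and had at most 8 gene counts in a library. Its introns were at 35.6, 51.0 and 46.4 CPM in WT and 6.93, 8.15 and 10.8 CPM in KO, where those of Dzip1 were higher. The intronic log2 change of Cldn10 was -2.36 (SE 0.24, edgeR adjusted p = 0.0109), with an adjusted p of 0.0603, 0.0641 and 0.0774 without WT library 2, KO library 4 or KO library 5.

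**Figure D4:**
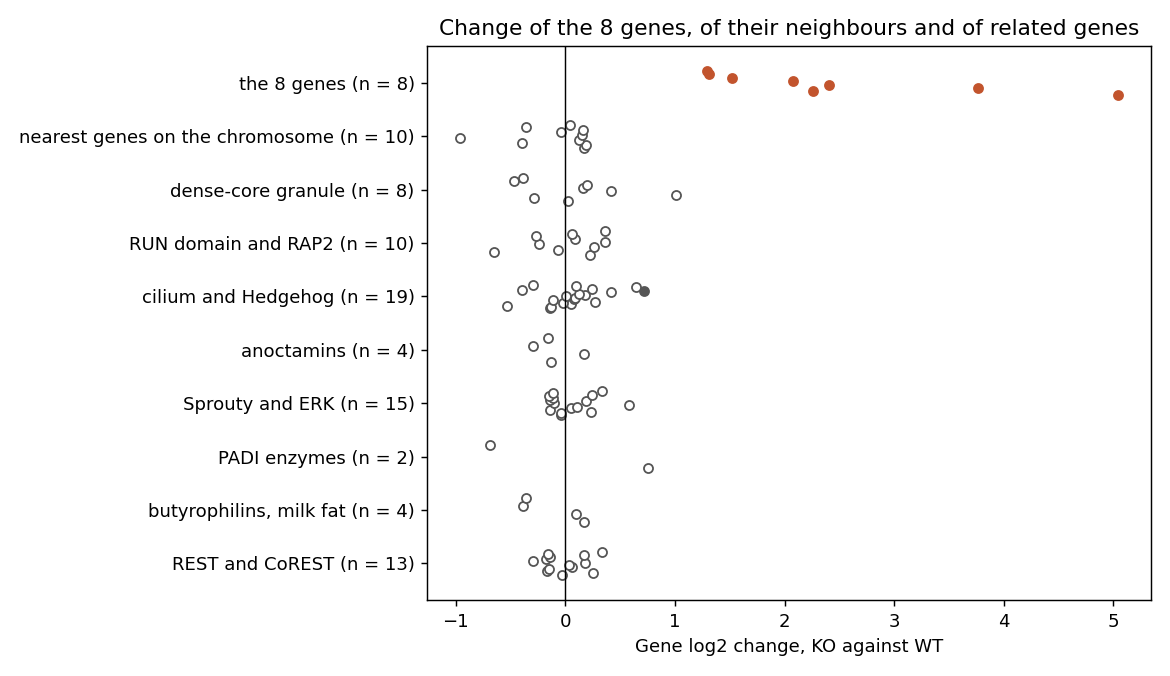
Gene log2 change, KO against WT, of the 8 genes (orange), of the tested nearest genes on the chromosome and of the tested genes in 8 related lists (grey). Filled points were called and open points were not, and apart from the 8 genes 1 point, Cep164, is filled.

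The repressors best known for keeping Chga and other neuronal genes off outside neurons were not called. All 13 genes listed for REST and its CoREST partners were tested, 0 were called at an adjusted p under 0.05 and 0 were past an unadjusted p of 0.05, with a median log2 change of -0.03. Rest itself was at 39.5 ± 0.847 and 38.6 ± 1.58 CPM (log2 change -0.03, SE 0.07). Gfi1b, a repressor of red cell precursors that works with CoREST, was at 143.9 ± 27.2 and 126.7 ± 17.4 CPM. Rcor1 was at 137 ± 16.6 and 163 ± 9.29 CPM (log2 change 0.25, edgeR adjusted p = 0.311). With a hepatocyte covariate Rcor1 and 2 others of the list, Hdac2 and Phf21a, were called higher. That run called 1277 genes higher over all genes, against 276 without the covariate.

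Genes were ranked by the distance of their profile from that of each of the 8, among tested genes averaging 1 CPM or more. Profiles were log2(CPM + 0.5) over the 6 libraries, each centred on its own mean and not scaled. The distance therefore depends largely on the size of the change between KO and WT. That change chose the 8 genes, so the order below is a description. Nearest to Chga were Cxcr7, a chemokine-binding receptor, Smtnl1 and Vwa5b2, at distances of 2.18, 3.57 and 3.59. Cxcr7 was also nearest to Rundc3a (0.81), and Smtnl1 to Tac2 (0.57) and Dzip1 (0.62). Cxcr7 was at 0.479, 0.542 and 0.831 CPM in WT and 8.60, 8.85 and 10.5 CPM in KO, below Chga in every library. Vwa5b2 was nearest to Ano1 (0.67), Tmtc1 to Spry1 (0.31), Slc35a3 to Padi2 (0.20) and Eif5a2 to Btn1a1 (0.23). Among the 8, Tac2 and Dzip1 were closest (0.22), and Chga and Padi2 farthest apart (4.41).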

How the data were processed

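The authors deposited raw counts per gene symbol in a gene table and an exon and intron table of 15543 genes, whose exon counts equal the gene counts. Per the submitters' processing notes, STAR and HTSeq were used (no versions) and the builds were NCBIM37 and mm10. For the strand setting, gene models and intron definition, nothing was given in these sources. Printed coordinates are GRCm38. Per the file name, globin and mitochondrial genes were taken out.

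Counts were scaled by trimmed mean of M values (TMM) and fitted with edgeR 4.0.16 (R 4.3.3), quasi-likelihood F test, filterByExpr at minimum count 10 and minimum total 15, Benjamini-Hochberg adjustment at 0.05. SEs come from the F statistic. Exonic minus intronic change is the interaction of region and genotype over exon and intron counts with a term per sample. Scripts were tested on simulated data. The members and gene lists were chosen with earlier results of these data known. The related list genes named are the called ones or the 2 of highest level; paralogues and other genes outside that rule were named after their values were seen. A gene that this rule takes is not reported here. Alternatives were DESeq2 1.42.0, other scaling, filters and prior counts, leaving out libraries, and a hepatocyte covariate.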

Additional observations from a re-analysis of the deposited data

How the results depend on the processing

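No paired analysis was possible because WT libraries are numbered 1 to 3 and KO libraries 4 to 6 and share no number. The 8 genes kept a positive gene and intron change in every alternative run. Their median gene log2 change of 2.17 ran from 2.01 to 2.35 with single libraries left out and was 2.03 without WT library 2 and KO library 6. The sign of the exonic minus intronic change turned for Spry1 (0.09, 0.47 and 0.28 without WT library 1, WT library 2 or KO library 6, and 1.05 without WT library 2 and KO library 6), Dzip1 (-0.01 without WT library 2) and Tac2 (-0.01 without KO library 5). With single libraries left out it ran from -1.28 to 0.47 for Spry1, -0.01 to 0.39 for Dzip1 and -0.01 to 0.10 for Tac2. Counts over all genes depended more on the libraries, and the cause was not tested. Genes called higher (276) ran from 5 to 483 and lower (219) from 7 to 1012 with single libraries left out. They were 580 and 838 without WT library 2 and KO library 6, 655 and 652 with DESeq2, and 1277 and 1286 with the hepatocyte covariate. Introns called higher (28) ran from 4 to 27, and were 1 without the hepatocyte-rich pair, 123 with DESeq2 and 7 on the exon scale. Introns called lower (57) ran from 6 to 121, and were 0 and 217 without that pair and with DESeq2. Calls for the exonic minus intronic change (0 in each direction) ran from 0 to 44 and 0 to 125, were 37 and 2 with DESeq2, and 8 were exon-higher without a sample term. Related list genes called higher (1) and lower (0) ran from 0 to 4 and 0 to 3, and were 3 and 2 without the pair, 4 and 1 with DESeq2 and 12 and 2 with the covariate. Seed sites (0 genes) became 1 with miR-451b and 1 in whole transcripts, 2 searches chosen after seeing the data.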
